A study of Homo sapiens with 12 samples.

Results

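The genes described are 10 components of cytokine signaling, and 10 of 10 were found: the cytokine receptor chains IL6R, IL6ST, CSF2RA, CSF2RB, IL3RA and CSF3R, the kinases JAK1 and JAK2, and the transcription factors STAT3 and STAT5A. They were chosen by name, as the rows of the count table that carry these symbols, out of 57353 gene names in the table and 12998 genes with enough reads to test. All 10 passed the filter on low values, which asked for a mean of at least 1 raw count and of at least 1 CPM (counts per 1000000 counts of the library) over all libraries. The cells were MOLM-13, a human acute myeloid leukemia (AML) line whose FLT3 receptor carries an internal tandem duplication (FLT3-ITD), and the labels give the genotype as WT. The libraries of poly-A RNA fell into 4 groups of 3: vehicle (DMSO) in RPMI, quizartinib in RPMI, vehicle in hBMSC-CM and quizartinib in hBMSC-CM. Quizartinib (AC220) is a FLT3 kinase inhibitor, given at 3 nM, and all cells were harvested after 15 hr. RPMI is regular culture medium, and hBMSC-CM is medium conditioned by HS-5, a human bone marrow stromal cell line, mixed in equal parts with RPMI. All libraries therefore came from 1 leukemia line and 1 stromal line, and the soluble content of the medium stood in for the marrow. The study calls its replicates biological, and the labels do not say how the 3 libraries of a group were grown apart, so p-values measure the spread between these libraries only.

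The 6 receptor chains belong to the class I cytokine receptors, which have no kinase domain of their own. A ligand brings chains together, the JAK kinases bound to their tails become active and phosphorylate the receptor, and STAT proteins dock there, are phosphorylated in turn, form dimers and move to the nucleus to bind DNA. IL6R binds interleukin 6 and hands it to gp130, the signaling chain encoded by IL6ST, which also serves oncostatin M, LIF and interleukin 11. IL3RA and CSF2RA are the ligand-binding chains for interleukin 3 and GM-CSF, and both use the common beta chain encoded by CSF2RB. CSF3R binds G-CSF and signals as a dimer of itself. In myeloid cells gp130 and CSF3R act mainly through JAK1, JAK2 and STAT3, while the common beta chain acts through JAK2 and STAT5, and FLT3-ITD also activates STAT5 without a cytokine.

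STAT dimers bind a palindrome of the form TTCNNNGAA, so the 300 bases around the start sites of these genes (250 before and 50 after, RefSeq, GRCh38.p14) were searched for it. The table held 17 windows for 9 of the 10 genes, none of them for CSF2RB. Among all 34961 windows in the table, 7.66% held the palindrome and 0.455% held it 2 or more times. It lay in 1 of the 17 windows, that of IL3RA, where it occurred 3 times, with first bases at -199, -179 and 13 counted from the start site. The window of CISH, which encodes a feedback inhibitor induced by STAT5, is shown beside it because it held 4 matches, at -241, -230, -129 and -112. Another reason was that CISH RNA moved in the opposite direction to IL3RA RNA with quizartinib in RPMI. In hBMSC-CM both had a higher mean with the drug, 89.4 and then 109 CPM for CISH and 25.6 and then 48.8 CPM for IL3RA. The CISH window was chosen after the matches were seen. The windows of PIM1 and SOCS1 and the 2 of SOCS3, other STAT target genes, held 0. Capitals mark the matches, each window is printed 5′ to 3′ along its gene, and the palindrome reads alike on both strands.
IL3RA promoter, chrX:1336535-1336834, plus strand: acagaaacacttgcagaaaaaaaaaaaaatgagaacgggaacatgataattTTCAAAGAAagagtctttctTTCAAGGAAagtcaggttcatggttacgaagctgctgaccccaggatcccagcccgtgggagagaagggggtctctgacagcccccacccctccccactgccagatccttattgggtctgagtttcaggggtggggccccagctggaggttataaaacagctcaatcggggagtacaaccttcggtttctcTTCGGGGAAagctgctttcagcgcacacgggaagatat
CISH promoter, chr3:50611725-50612024, minus strand: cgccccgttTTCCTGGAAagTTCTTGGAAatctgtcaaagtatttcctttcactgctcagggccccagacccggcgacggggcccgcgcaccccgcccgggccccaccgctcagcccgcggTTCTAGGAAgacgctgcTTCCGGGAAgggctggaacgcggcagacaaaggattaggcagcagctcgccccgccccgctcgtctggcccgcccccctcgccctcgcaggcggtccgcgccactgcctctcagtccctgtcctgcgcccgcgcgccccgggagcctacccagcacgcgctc
A match is a string of letters and no proof of binding, and no binding was measured in these libraries. Neither window held GAGGAA, the core bound by the myeloid factor PU.1, or the E-box CACGTG on either strand. GAGGAA was in 6 of the 17 windows (IL6R, CSF2RA, CSF3R, JAK2 and 2 of STAT5A) and in 27.9% of all windows. CACGTG was in 0 of the 17 windows and in 7.27% of all.

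Total counts per library ran from 19966546 to 31546104, with a median of 23559937, and the 4 groups overlapped in depth. Summed over the 12 libraries, the 10 genes had from 5776 counts (IL6ST) to 63643 counts (IL6R), and over the 40 groups of 3 libraries their coefficients of variation ran from 0.532% to 8.62% with a median of 3.46%. Levels are given as CPM scaled by TMM, a factor that evens out composition between libraries. FLT3, the target of the drug, had 209 ± 3.43 CPM with vehicle and 454 ± 9.42 CPM with quizartinib in RPMI (SD, n = 3), and 113 ± 3.34 and 157 ± 5.87 CPM in hBMSC-CM (SD, n = 3). Of 11 markers of myeloid leukemia cells, 9 passed the filter, among them CD33 at 73.7 to 101 CPM, whereas MPO reached 5.79 CPM at most, CD14 reached 2.11 CPM and ANPEP was at or near 0. Of 13 stromal fibroblast markers, COL3A1, COL6A2, LUM, DCN and THY1 had 0 counts in every library. The summed fibroblast markers were 1.47 to 1.94 CPM with vehicle in RPMI, 5.78 to 6.64 with quizartinib in RPMI, 1.04 to 1.78 with vehicle in hBMSC-CM and 2.30 to 2.55 with quizartinib in hBMSC-CM. Most of the rise was COL1A1, at 4.35 to 4.84 CPM with quizartinib in RPMI, which was also the 1 fibroblast marker that passed the filter. T cell, B cell and erythroid markers stayed at or below 1.23 CPM in sum for each type. The summed myeloid markers were 1170 to 1224 and 1796 to 1808 CPM with vehicle and quizartinib in RPMI, and 1443 to 1474 and 2149 to 2314 CPM in hBMSC-CM. In RPMI the rise lay in FLT3, PTPRC (260 to 282 against 523 to 545 CPM), CSF1R (20.4 to 27.4 against 95.9 to 103) and LYZ (260 to 293 against 347 to 359). SPI1, which encodes PU.1, was also higher with the drug in RPMI (74.5 to 81.7 against 94.7 to 111). CD33 (91.5 to 94.3 against 73.7 to 78.5 CPM), CEBPA (215 to 227 against 155 to 176) and ITGAM (21.7 to 23.6 against 10.6 to 11.9) were lower with the drug there. The part of any of these markers in the results was not tested. In bulk RNA, a larger share of cells with a transcript and more of it per cell cannot be told apart. CPM is also a share of the counts of a library, so a rise in CPM need not be more RNA per cell. In its polysome experiment the study reported lower RNA yields after quizartinib, in whole lysates and more strongly in heavy polysomes. RNA per cell was not measured in these libraries, so the part of this in the small changes below was not tested.

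**Figure D1:**
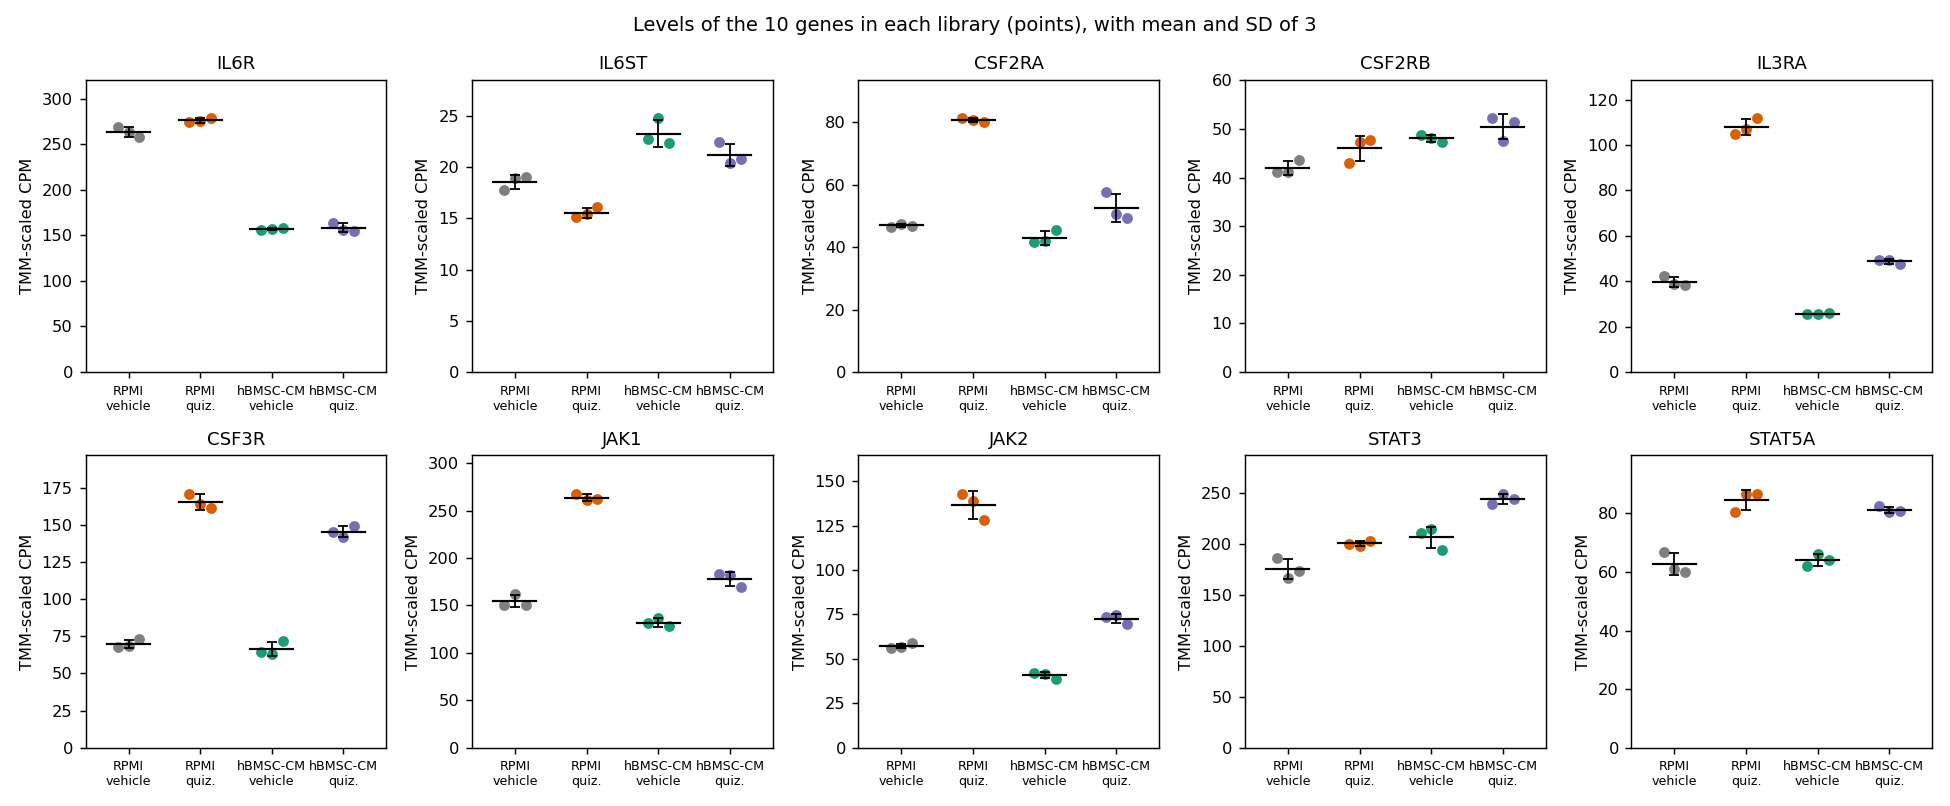
Levels of the 10 genes in TMM-scaled CPM (vertical axes, starting at 0) in each of the 12 libraries (points) of the 4 groups, with lines for the mean and bars for the SD of 3. IL6R runs from 155 to 164 CPM in hBMSC-CM and from 258 to 279 CPM in RPMI, and IL3RA, CSF3R and JAK2 are highest with quizartinib in RPMI.

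Compared per kilobase of exon in RPMI with vehicle, IL6R had the highest level of the 10 genes, 37.7 ± 0.814 CPM per kilobase, and IL6ST had the lowest, 1.54 ± 0.0522 (SD, n = 3). Between them lay IL3RA at 23.3 ± 1.31, STAT3 at 15.6 ± 0.891, JAK1 at 11.8 ± 0.493, CSF2RA at 11.5 ± 0.120, STAT5A at 9.81 ± 0.583, CSF2RB at 8.41 ± 0.296, JAK2 at 7.24 ± 0.168 and CSF3R at 6.60 ± 0.259 CPM per kilobase (SD, n = 3). JAK1 and CSF2RA differed by less than the SD of JAK1. With the length of the longest transcript in place of all exons, IL6R and IL6ST kept the ends of the order at 45.7 and 2.05 CPM per kilobase, while STAT3 moved to 34.7 and CSF3R to 11.5.

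In RPMI, 8 of the 10 genes rose with quizartinib, 1 (IL6ST) fell and 1 (IL6R) was not called, though 2 other scalings called it. The median log2 fold change of the 10 was 0.60, where it was 0.02 over all genes tested. Most of the transcriptome moved in this comparison: 79.3% of all genes were called, 40.1% upward and 39.2% downward. In all, 3 genes changed by at least 2-fold, IL3RA, CSF3R and JAK2, where 21.4% of all genes were called at that size. Treated and untreated libraries lay fully apart for 9 of the 10 in RPMI, as for 81.1% of all genes, and for 7 in hBMSC-CM, as for 68.4%. In hBMSC-CM, 7 of the 10 genes rose with quizartinib, and IL6R, IL6ST and CSF2RB were not called (IL6R and CSF2RB were with 2 other scalings). There 67.1% of all genes were called (33.4% upward and 33.7% downward), and the median log2 fold change was 0.32 for the 10 and 0.01 for all genes. CSF3R was the 1 gene of the 10 that changed by at least 2-fold in hBMSC-CM, where 6.89% of all genes did. Calls came from the quasi-likelihood test of edgeR, Benjamini-Hochberg adjusted over 12998 genes at 0.05, and every adjusted p below comes from it.

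IL3RA, the interleukin 3 receptor alpha chain also known as CD123, had the largest change of the 10 with quizartinib in RPMI. Its level in RPMI was 42.4, 38.6 and 38.5 CPM with vehicle and 105, 107 and 112 CPM with quizartinib. In hBMSC-CM it was 25.5, 25.6 and 25.8 CPM with vehicle and 49.3, 49.4 and 47.6 CPM with quizartinib. No pair of groups overlapped, and the highest group mean was 4.22 times the lowest. It rose 2.71-fold with quizartinib in RPMI (log2 fold change 1.44, SE 0.0484, adjusted p = 1.04e-16) and 1.90-fold in hBMSC-CM (0.93, SE 0.0530, adjusted p = 3.66e-12). The gene lies at X 1336616 to 1382689 in GRCh38 within the pseudoautosomal region, so the annotation carries a copy on Y. CSF2RA, a neighbour in that region (X 1268800 to 1310381), encodes the GM-CSF receptor alpha chain. It had 46.5, 47.5 and 46.8 CPM with vehicle and 81.4, 80.7 and 80.1 CPM with quizartinib in RPMI. In hBMSC-CM the values were 41.6, 41.9 and 45.5 CPM with vehicle and 57.7, 50.7 and 49.2 CPM with quizartinib. The groups did not overlap in either medium, but the step was smaller in hBMSC-CM, 1.23-fold (log2 0.29, SE 0.0567, adjusted p = 1.14e-04) against 1.72-fold in RPMI (log2 0.78, SE 0.0545, adjusted p = 2.35e-11).

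CSF2RB, the beta chain that both alpha chains need, had group means between 42.0 and 50.4 CPM. It had 41.1, 41.1 and 43.7 CPM with vehicle and 43.1, 47.4 and 47.7 CPM with quizartinib in RPMI, and 48.7, 48.1 and 47.4 CPM with vehicle and 52.3, 47.5 and 51.5 CPM with quizartinib in hBMSC-CM. Neighbouring groups in this order overlapped throughout. The log2 fold change with quizartinib was 0.14 in RPMI (SE 0.0544, adjusted p = 0.0277) and 0.07 in hBMSC-CM (SE 0.0539, adjusted p = 0.261). The call in RPMI was lost without RPMI_vehicle replicate 1 (adjusted p = 0.0935) or 2 (0.0866), without RPMI_quizartinib replicate 2 (0.0917) or 3 (0.0847), and without the filter on low counts (log2 0.03, adjusted p = 0.732). Over all its alternatives that adjusted p ran from 4.51e-04 to 0.732. In hBMSC-CM it was called with library size alone (log2 0.17, adjusted p = 0.00645) and with upper-quartile factors (0.15, adjusted p = 0.0168), and its adjusted p ran from 0.00645 to 0.726. The gene lies at 22 36913628 to 36940439.

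CSF3R, the G-CSF receptor of granulocytic cells (1 36466043 to 36483278), rose by over 2-fold with the drug in both media. It had 68.0, 68.6 and 73.0 CPM with vehicle and 171, 164 and 161 CPM with quizartinib in RPMI. In hBMSC-CM it had 64.2, 63.1 and 72.1 CPM with vehicle and 145, 142 and 149 CPM with quizartinib. The vehicle groups overlapped each other and both lay far below the quizartinib groups. The rise was 2.37-fold in RPMI (log2 1.25, SE 0.0492, adjusted p = 1.50e-15) and 2.19-fold in hBMSC-CM (log2 1.13, SE 0.0497, adjusted p = 6.65e-14).

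IL6R (1 154405193 to 154469450) differed more between media than between treatments. In RPMI its level was 269, 263 and 258 CPM with vehicle and 274, 276 and 279 CPM with quizartinib. In hBMSC-CM it was 156, 157 and 158 CPM with vehicle and 164, 156 and 155 CPM with quizartinib. The 6 libraries in RPMI (258 to 279 CPM) all lay above the 6 in hBMSC-CM (155 to 164 CPM). The log2 fold change with quizartinib was 0.07 in RPMI (SE 0.0379, adjusted p = 0.109), although the libraries did not overlap, and 0.01 in hBMSC-CM (SE 0.0390, adjusted p = 0.792). Both were called with other scalings: with library size alone the values were 0.16 (adjusted p = 4.83e-04) and 0.12 (adjusted p = 0.00827), a setting that moved the median of all genes by 0.09 and 0.10. In RPMI a filter at a mean of 5 CPM also gave a call (0.12, adjusted p = 0.00582). Over their alternatives the adjusted p ran from 3.29e-04 to 0.610 in RPMI and from 0.00827 to 0.996 in hBMSC-CM. IL6R-AS1 is a low antisense transcript that shares no exon bases with IL6R. Its means were 0.948 and 2.04 CPM with vehicle and quizartinib in RPMI, and 0.489 and 0.937 CPM in hBMSC-CM. It passed the filter only through the quizartinib group in RPMI, so its values are a description. The log2 fold change with quizartinib was 1.08 in RPMI and 0.96 in hBMSC-CM. Between media, hBMSC-CM against RPMI, it was -1.01 with vehicle and -1.12 with quizartinib.

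IL6ST, encoding gp130 (5 55935095 to 55995022), was higher in hBMSC-CM, where IL6R was lower. It had 17.8, 18.9 and 19.0 CPM with vehicle and 15.1, 15.4 and 16.1 CPM with quizartinib in RPMI, and 22.7, 24.8 and 22.3 CPM with vehicle and 22.4, 20.4 and 20.8 CPM with quizartinib in hBMSC-CM. It was the 1 gene of the 10 that fell with quizartinib in RPMI, by 0.25 on the log2 scale (SE 0.0677, adjusted p = 0.00184), with no overlap of libraries. In hBMSC-CM the log2 fold change was -0.13 (SE 0.0644, adjusted p = 0.0815) and the libraries overlapped. Without CM_quizartinib replicate 1 it was -0.17 and called (adjusted p = 0.0410), and over all its alternatives the adjusted p ran from 0.0410 to 0.725. An antisense long noncoding RNA covers 6.61% of the IL6ST exon bases, and since no source used here says that counting was by strand, reads of the 2 cannot be told apart.

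Both kinases rose with quizartinib in both media. JAK1 (1 64833223 to 65067754), which pairs with gp130 and many other receptors, had 151, 162 and 151 CPM with vehicle and 268, 261 and 262 CPM with quizartinib in RPMI. In hBMSC-CM it had 131, 137 and 128 CPM with vehicle and 183, 182 and 169 CPM with quizartinib. No pair of groups overlapped, and the rise was 1.70-fold in RPMI (log2 0.77, SE 0.0440, adjusted p = 8.80e-13) and 1.35-fold in hBMSC-CM (log2 0.43, SE 0.0447, adjusted p = 3.54e-08). LINC01359 shares 4.91% of the JAK1 exon bases and had 87 counts over all libraries, against 54033 for JAK1. JAK2 (9 4984390 to 5129948), the kinase of the common beta chain and of CSF3R, had 56.1, 56.8 and 58.7 CPM with vehicle and 143, 139 and 128 CPM with quizartinib in RPMI. In hBMSC-CM it had 42.2, 41.3 and 38.8 CPM with vehicle and 73.6, 74.4 and 69.7 CPM with quizartinib. Its groups were also fully separate, with a 2.39-fold rise in RPMI (log2 1.26, SE 0.0486, adjusted p = 1.04e-15) and a 1.78-fold rise in hBMSC-CM (log2 0.83, SE 0.0516, adjusted p = 1.36e-11).

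The fitted increases of the STAT genes were smaller than those of the kinases. STAT3 (17 42313324 to 42388540) had 186, 166 and 173 CPM with vehicle and 200, 198 and 203 CPM with quizartinib in RPMI, and 210, 214 and 194 CPM with vehicle and 239, 249 and 244 CPM with quizartinib in hBMSC-CM. It was highest where both the drug and hBMSC-CM were present. The log2 fold change with quizartinib was 0.19 in RPMI (SE 0.0466, adjusted p = 8.29e-04) and 0.24 in hBMSC-CM (SE 0.0463, adjusted p = 1.04e-04). The call in RPMI was lost without the filter on low counts (log2 0.09, adjusted p = 0.145), a setting that moved the median of all genes by -0.10. STAT5A (17 42287547 to 42311943) had 66.9, 60.9 and 60.1 CPM with vehicle and 80.5, 86.8 and 86.5 CPM with quizartinib in RPMI. In hBMSC-CM it had 61.9, 66.3 and 64.1 CPM with vehicle and 82.5, 80.5 and 80.8 CPM with quizartinib. The vehicle groups overlapped each other, as did the quizartinib groups, and the drug separated them, 1.35-fold in RPMI (log2 0.43, SE 0.0487, adjusted p = 5.78e-08) and 1.27-fold in hBMSC-CM (log2 0.34, SE 0.0491, adjusted p = 3.15e-06). STAT5B, its close copy next to it on the opposite strand, shares 415 exon bases with STAT5A (6.50% of them). Whether reads of these bases were counted for either gene or left out is not given here, so the values of both are uncertain.

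**Figure D2:**
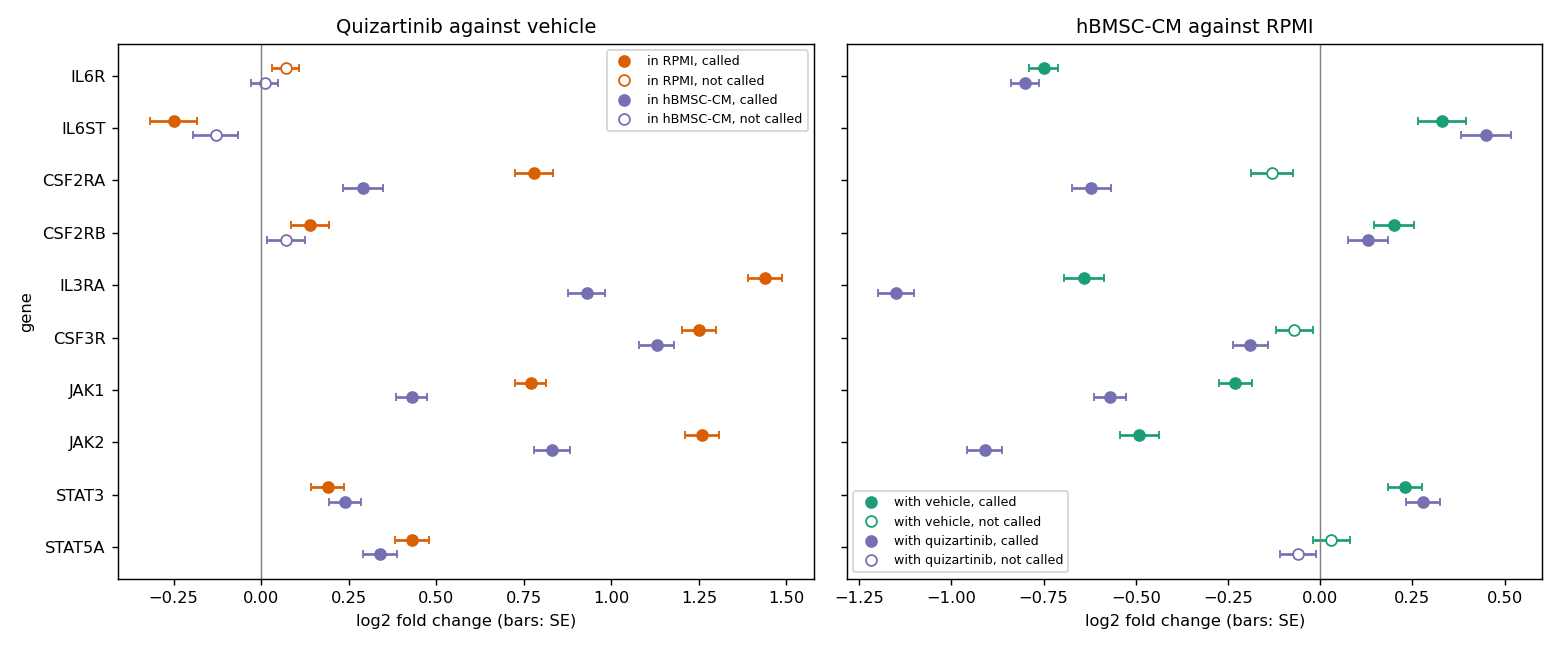
Log2 fold changes of the 10 genes (horizontal axes, bars are the SE) with quizartinib in each medium (left) and with hBMSC-CM under each treatment (right), filled where the adjusted p was under 0.05. On the left IL3RA, JAK2, JAK1 and CSF2RA lie further from 0 in RPMI than in hBMSC-CM, and on the right IL6R lies near -0.75 and -0.80 with either treatment.

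Whether conditioned medium changed the response to the drug was tested as the interaction, the log2 fold change with quizartinib in hBMSC-CM minus that in RPMI. It was called for 4 of the 10 genes, all below 0, where 45.2% of all genes were called, 26.1% above 0 and 19.2% below 0. None of the 10 had a called difference of 1 or more on the log2 scale, a size that 5.92% of all genes reached. IL3RA had the largest difference, -0.51 (SE 0.0718, adjusted p = 6.59e-06), followed by CSF2RA at -0.49 (SE 0.0786, adjusted p = 3.29e-05), JAK2 at -0.43 (SE 0.0708, adjusted p = 4.65e-05) and JAK1 at -0.34 (SE 0.0626, adjusted p = 1.72e-04). Each of these 4 still rose with quizartinib in hBMSC-CM. The difference was not called for CSF3R (-0.12, SE 0.0696, adjusted p = 0.189), STAT5A (-0.09, SE 0.0692, adjusted p = 0.322), CSF2RB (-0.07, SE 0.0765, adjusted p = 0.515), IL6R (-0.05, SE 0.0544, adjusted p = 0.438), STAT3 (0.05, SE 0.0656, adjusted p = 0.555) or IL6ST (0.12, SE 0.0934, adjusted p = 0.296). The interaction was called for 4 of the 10 genes under each of the alternatives run.

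With quizartinib present, hBMSC-CM against RPMI asks what the stromal medium changed in drug-treated cells. Of the 10 genes, 3 were higher in hBMSC-CM (IL6ST, CSF2RB and STAT3), 6 were lower and STAT5A was not called. Of all genes, 69.8% were called, 35.5% upward and 34.3% downward. Libraries of either medium lay fully apart for 8 of the 10, as they did for 71.5% of all genes. The median log2 fold change was -0.38 for the 10 and 0.00 for all genes. The largest decrease was that of IL3RA, -1.15 (SE 0.0477, adjusted p = 1.07e-14), the 1 gene past 2-fold, where 9.87% of all genes were. It was followed by JAK2 at -0.91 (SE 0.0479, adjusted p = 4.68e-13), IL6R at -0.80 (SE 0.0386, adjusted p = 1.20e-13), CSF2RA at -0.62 (SE 0.0542, adjusted p = 2.28e-09), JAK1 at -0.57 (SE 0.0438, adjusted p = 2.90e-10) and CSF3R at -0.19 (SE 0.0473, adjusted p = 0.00144). The increases were 0.45 for IL6ST (SE 0.0670, adjusted p = 4.73e-06), 0.28 for STAT3 (SE 0.0463, adjusted p = 1.46e-05) and 0.13 for CSF2RB (SE 0.0538, adjusted p = 0.0345). The CSF2RB libraries overlapped, and its call was lost without RPMI_quizartinib replicate 1 (log2 0.08, adjusted p = 0.194), CM_quizartinib replicate 1 (0.11, adjusted p = 0.123) or CM_quizartinib replicate 3 (0.11, adjusted p = 0.113), with its adjusted p between 0.00198 and 0.194 over the alternatives. It was also lost with upper-quartile factors (0.09, adjusted p = 0.159), a filter at a mean of 5 CPM (adjusted p = 0.0555), the Wald test of DESeq2 (adjusted p = 0.0594) and a fit of only the groups compared (adjusted p = 0.0581). CSF3R lost its call without the filter on low counts (log2 -0.11, adjusted p = 0.0800).

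With vehicle, the media differed for fewer genes in all, 32.1% (16.6% upward and 15.5% downward). Of the 10 genes, 3 were higher in hBMSC-CM, 4 were lower and 3 were not called. None was called at 2-fold or more, where 1.39% of all genes were, and libraries lay fully apart for 8 of the 10 and for 44.6% of all genes. IL6R fell by 0.75 on the log2 scale (SE 0.0386, adjusted p = 8.20e-12), IL3RA by 0.64 (SE 0.0536, adjusted p = 1.43e-08), JAK2 by 0.49 (SE 0.0522, adjusted p = 4.80e-07) and JAK1 by 0.23 (SE 0.0448, adjusted p = 4.79e-04). IL6ST was higher by 0.33 (SE 0.0650, adjusted p = 6.24e-04), STAT3 by 0.23 (SE 0.0466, adjusted p = 6.48e-04) and CSF2RB by 0.20 (SE 0.0544, adjusted p = 0.00824). CSF2RA was not called (-0.13, SE 0.0570, adjusted p = 0.0946), though its libraries did not overlap, and it was called without CM_vehicle replicate 3 (-0.17, adjusted p = 0.0423), without CM_quizartinib replicate 1 (-0.13, adjusted p = 0.0477) and with upper-quartile factors (-0.15, adjusted p = 0.0444). CSF3R had -0.07 (SE 0.0510, adjusted p = 0.295), and -0.13 without CM_vehicle replicate 3 (adjusted p = 0.0430). STAT5A had 0.03 (SE 0.0497, adjusted p = 0.681).

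Set against untreated cells in RPMI, treated cells in hBMSC-CM had 9 of the 10 genes higher and IL6R lower, where 62.1% of all genes were called, 30.6% upward and 31.6% downward. CSF3R was the 1 gene of the 10 past 2-fold, where 6.28% of all genes were, and libraries lay fully apart for 10 of 10 and for 66.3% of all genes. It was 2.08-fold higher (log2 1.06, SE 0.0493, adjusted p = 1.12e-13) and IL6R was 1.66-fold lower (log2 -0.73, SE 0.0386, adjusted p = 8.26e-13). STAT3 was higher by 0.48 (SE 0.0464, adjusted p = 1.71e-08), STAT5A by 0.37 (SE 0.0489, adjusted p = 1.16e-06) and JAK2 by 0.34 (SE 0.0498, adjusted p = 4.42e-06). The other five lay between 0.17 and 0.29. The smallest, CSF2RA at 0.17 (SE 0.0559, adjusted p = 0.0131), was not called without CM_quizartinib replicate 1 (0.09, adjusted p = 0.150), nor was IL6ST, at 0.20 (SE 0.0654, adjusted p = 0.0130), without that library (0.15, adjusted p = 0.0804) or without RPMI_vehicle replicate 1 (0.17, adjusted p = 0.0674). Without the filter on low counts neither was called (CSF2RA 0.14, adjusted p = 0.0553, and IL6ST 0.17, adjusted p = 0.0833). These comparisons share groups of libraries with one another, so the same libraries stand behind several of the values for each gene.

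The balance between partner chains was computed in each library from CPM per kilobase and is given as a description, with no test. IL6R stood to IL6ST as 26.1, 24.1 and 23.5 with vehicle and 31.2, 30.9 and 29.8 with quizartinib in RPMI, and as 11.8, 11.0 and 12.2 and as 12.7, 13.2 and 12.9 in hBMSC-CM. The ratio was thus highest in treated RPMI cells, and the 6 libraries in hBMSC-CM lay between 11.0 and 13.2. IL3RA stood to CSF2RB as 2.77 ± 0.221 with vehicle and 6.85 ± 0.286 with quizartinib in RPMI (SD, n = 3), and as 1.56 ± 0.0295 and 2.83 ± 0.181 in hBMSC-CM (SD, n = 3). Treated cells in hBMSC-CM (2.70 to 3.03) therefore overlapped untreated cells in RPMI (2.57 to 3.01). CSF2RA stood to CSF2RB as 1.36 ± 0.0526 and 2.14 ± 0.139 in RPMI (SD, n = 3) and as 1.09 ± 0.0683 and 1.27 ± 0.0934 in hBMSC-CM (SD, n = 3). With the longest transcript as length this ratio was 2.37 ± 0.0913 with vehicle in RPMI (SD, n = 3), so its absolute value depends on the length used. JAK2 stood to JAK1 as 0.616 ± 0.0319 and 0.863 ± 0.0430 in RPMI (SD, n = 3), and as 0.514 ± 0.0200 and 0.679 ± 0.00825 in hBMSC-CM (SD, n = 3).

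**Figure D3:**
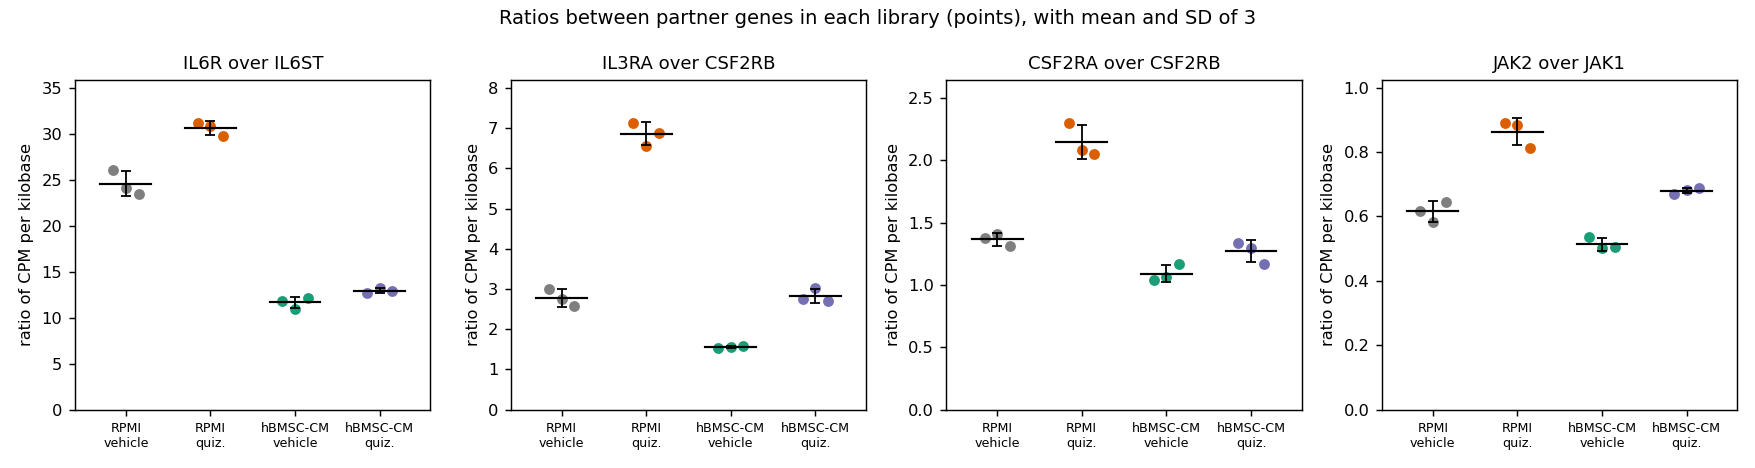
Ratios of CPM per kilobase of exon between partner genes (vertical axes, no unit, starting at 0) in each of the 12 libraries (points), with lines for the mean and bars for the SD of 3. IL6R over IL6ST separates by medium, and IL3RA over CSF2RB is highest with quizartinib in RPMI.

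For each gene, the 3 genes with the most similar course over the 12 libraries were found by Pearson's correlation of log2 CPM among 9288 tested genes that averaged 10 CPM or more. These r describe libraries that share 4 group means and carry no p. IL3RA ran with SSBP2, PLD4 and AMPD3 (r = 0.997 each), and PLD4 had 56.0, 315, 26.1 and 90.2 CPM in the groups in the order vehicle and quizartinib in RPMI, then in hBMSC-CM. JAK2 ran with SBF2 (0.999), SSBP2 (0.997) and PCF11 (0.996), so SSBP2 was near both. IL6R ran with NREP (0.997), HDAC9 (0.992) and CCNA1 (0.989). NREP had 203, 222, 83.8 and 90.7 CPM in the same order, the split by medium seen for IL6R. CSF3R ran with RASSF4 (0.997), MPEG1 (0.996) and ELF2 (0.994), JAK1 with SPG11 (0.998), EEPD1 and CAST (0.996 each), and CSF2RA with ABI1, ZBTB18 and TRIM23 (0.992 each). STAT3 ran with GAB2 (0.979), BHLHE40 (0.976) and PFKFB3 (0.973), all with higher means in hBMSC-CM than in RPMI at the same treatment. STAT5A ran with USP20 (0.980), ANXA6 (0.979) and CEP68 (0.977), and IL6ST with SEC23B (0.981), JMJD6 (0.970) and IDH1 (0.969). The weakest likeness was that of CSF2RB, with NR1H2 (0.927), NINJ1 (0.918) and BASP1 (0.911). By Spearman's correlation 0 or 1 of the 3 genes stayed in the list of each gene.

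The lists of genes around the 10 are set beside all genes tested. With quizartinib in RPMI 79.3% of all genes were called (40.1% upward, 39.2% downward, median log2 fold change 0.02), and in hBMSC-CM 67.1% (33.4% upward, 33.7% downward, median 0.01). Of 6 other JAK and STAT genes, 5 passed the filter and STAT4 did not. In RPMI 4 of the 5 rose with quizartinib and 0 fell (80.0% called, median 0.31), and in hBMSC-CM 5 rose (median 0.42). STAT2, a transcription factor of interferon signaling, rose most, from 98.2 ± 2.56 to 341 ± 14.7 CPM in RPMI (SD, n = 3; log2 1.80, adjusted p = 6.46e-19) and from 96.5 ± 2.98 to 247 ± 6.32 CPM in hBMSC-CM (SD, n = 3; log2 1.36, adjusted p = 8.19e-16). TYK2, another JAK kinase, rose by 0.48 in RPMI and 0.42 in hBMSC-CM on the log2 scale. JAK3, the kinase of the common gamma chain, was higher in hBMSC-CM with quizartinib (log2 0.95, adjusted p = 2.00e-10) and reached 36.3 ± 3.74 CPM there (SD, n = 3). STAT6 and STAT5B moved by at most 0.17 with the drug in either medium.

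Of 36 other cytokine receptor chains, most of them of class I or II, 21 were tested. In RPMI 15 rose and 4 fell with quizartinib (90.5% called, against 79.3% of all genes), and the median was 0.37, against 0.02. In hBMSC-CM 13 rose and 3 fell (76.2%, against 67.1%), with a median of 0.27, against 0.01. IL10RA, IL13RA1 and IL10RB had the largest increases in RPMI (2.11, 1.52 and 1.35), and IL15RA, IL17RA and IL4R the largest decreases (-1.31, -0.84 and -0.63). IL17RA belongs to the separate interleukin 17 receptor family, and IL15RA is a sushi-domain chain. In hBMSC-CM with quizartinib, 6 were higher than in RPMI and 10 lower (76.2%, against 69.8% of all genes). CRLF2 (2.57), IL7R (2.20) and IL15RA (1.73) led the increases, and CRLF2 and IL7R were low in untreated RPMI cells, at 0.218 ± 0.0997 and 3.59 ± 0.404 CPM (SD, n = 3). CRLF2 had a mean of 0.454 CPM with quizartinib in RPMI, and of 0.936 and 2.74 CPM with vehicle and quizartinib in hBMSC-CM. It passed the filter only through the last of these groups, so its place in this order carries no weight. LIFR and OSMR, which pair with gp130 for LIF and oncostatin M, were among the 15 chains below the filter. LIFR had 0.0388 CPM at most and OSMR 0.0660. Of 16 ligands 5 were tested, OSM, CNTF, TSLP, IL12A and IL23A, so the list goes beyond ligands of the 10 genes. With quizartinib 0 of these 5 rose and 3 fell in RPMI (60.0% called, median -0.59), while 1 rose and 1 fell in hBMSC-CM (40.0%, median 0.01). IL6, CSF2, CSF3 and IL3, which encode the ligands of IL6R, CSF2RA, CSF3R and IL3RA, had 0 counts in all 12 libraries, which allows up to 0.150 CPM in the shallowest one.

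Of 22 negative regulators 21 were tested, and with quizartinib in RPMI 10 rose and 7 fell (81.0% called, close to the 79.3% of all genes), with a median of 0.06, against 0.02. PTPN6, encoding the phosphatase SHP-1, fell most (-2.10), followed by USP18 (-1.86) and CISH (-1.29), while CBLB (1.47), PTPRC (0.98) and SOCS1 (0.86) rose. In hBMSC-CM 11 rose and 6 fell (81.0%, against 67.1% of all genes), with a median of 0.15. SOCS3, a gp130 feedback inhibitor and STAT3 target, had 3.16 ± 0.561 and 2.50 ± 0.543 CPM with vehicle and quizartinib in RPMI (SD, n = 3), and 13.6 ± 1.52 and 30.5 ± 2.17 CPM in hBMSC-CM (SD, n = 3). CISH had 46.4 ± 2.13 and 18.9 ± 0.180 CPM in RPMI (SD, n = 3), and 89.4 ± 8.67 and 109 ± 8.78 CPM in hBMSC-CM (SD, n = 3). Of 16 adaptors and kinases tested (17 listed), 10 rose and 2 fell with quizartinib in RPMI, led by FES (1.09), SOS1 (0.84) and SOS2 (0.78). The share called was 75.0%, near the 79.3% of all genes, and the median was 0.21. In hBMSC-CM 12 rose and 2 fell (87.5%, against 67.1%), with a median of 0.18.

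Of 22 STAT3 and STAT5 target genes 21 were tested. The list overlaps that of the negative regulators, which share CISH and SOCS genes with it. It does not record whether a STAT raises or lowers each gene, so the counts by direction are not a measure of STAT activity. With quizartinib in RPMI 5 rose and 12 fell (81.0% called, against 79.3% of all genes, median -0.33). In hBMSC-CM 9 rose and 7 fell (76.2%, against 67.1%, median 0.01). Under quizartinib 18 were higher and 1 (BCL6) was lower with conditioned medium, where 35.5% of all genes were higher and 34.3% lower, with a median of 1.59, against 0.00. With vehicle 15 were higher and 1 was lower with conditioned medium, where 16.6% of all genes were higher and 15.5% lower, with a median of 0.69. PIM1, a STAT5 target kinase, had 30.8 ± 2.01 and 12.1 ± 1.35 CPM with vehicle and quizartinib in RPMI (SD, n = 3), and 116 ± 3.44 and 163 ± 7.96 CPM in hBMSC-CM (SD, n = 3). OSM, at once a target and a gp130 ligand, fell in RPMI with quizartinib (log2 -2.26, adjusted p = 3.49e-12) and had a log2 fold change of 0.01 in hBMSC-CM (adjusted p = 0.934).

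**Figure D4:**
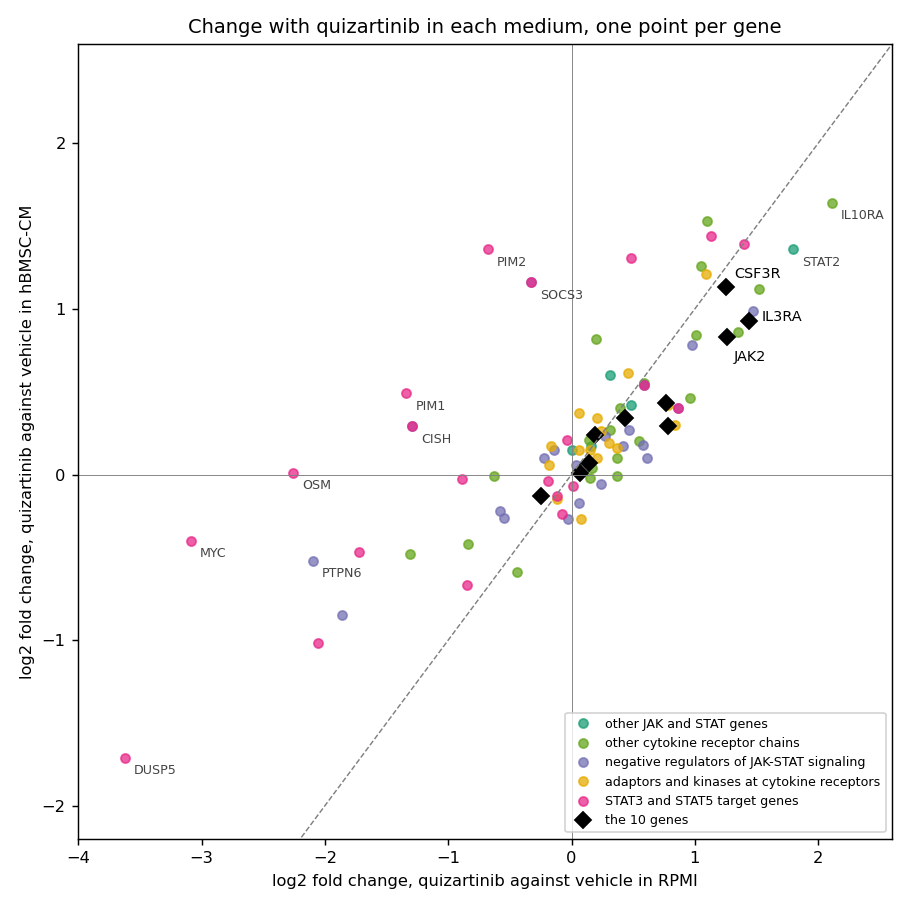
Log2 fold change with quizartinib in RPMI (horizontal) against that in hBMSC-CM (vertical), 1 point per gene. Black diamonds are the 10 genes, and circles, by list, are the listed genes tested around them. The list of ligands is not drawn, and OSM is shown as a target gene. The dashed line marks where both are equal. IL3RA and JAK2 lie below the line on the side of increases, CSF3R lies close to it, and OSM, CISH, PIM1 and MYC lie above it on the side of decreases in RPMI.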

How the data were processed

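Poly-A RNA libraries (Universal Plus mRNA-seq with NuQuant) were sequenced as paired ends on a NovaSeq. The authors trimmed reads with BBDuk, aligned them with STAR 2.6.0a to hg38 with Ensembl annotation and deposited raw counts per gene, with counts of rows of the same name added together. Use of strand in counting is not given in the sources used here. From these counts, genes with a mean count and a mean CPM of at least 1 were kept (12998), which follows the authors' filter. Counts were scaled by TMM over the kept genes and fitted in 1 edgeR 4.0.16 quasi-likelihood model (R 4.3.3) with 4 group means over all 12 libraries. P-values are two-sided and Benjamini-Hochberg adjusted over all genes tested, with a threshold of 0.05, and SE is the log2 fold change divided by the square root of its F statistic. The script was tested on simulated data. The 10 genes and the gene lists were chosen with earlier results of these data known, so no test over a list was made, and lists are described by counts and medians beside those of all genes. A few genes of the lists are not reported here. Genes named beyond the 10 were the other JAK and STAT genes, FLT3, SOCS3, CISH, PIM1 and OSM, up to 3 called genes per list and direction, and the 3 genes most like each of the 10. Gene positions and exon lengths came from GENCODE on GRCh38. Lengths are those of all exons of a gene joined, with the longest transcript as the alternative.

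Depth was 19966546 to 31546104 counts per library. Counting noise was not set against the spread between libraries gene by gene. For genes of few counts, such as IL6ST, it can make up much of that spread. Libraries of a group differed beyond counting noise in all 12 pairs (chi-square per gene 2.66 to 10.5), so none was counted as a repeat. Same-numbered libraries of different groups did not deviate together (r from -0.23 to 0.10 over 18 pairs), so replicate numbers were not taken as pairs. Alternatives were DESeq2 1.42.0, limma-voom (limma 3.58.1), other scalings and filters, a stricter threshold, only the groups compared, the replicate number as a block and leaving out 1 library at a time. The labels also name an ATM inhibitor, for which no library was analysed here.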

Additional observations from a re-analysis of the deposited data

Results flagged for a closer look

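A difference between media in the response to quizartinib, by edgeR's test of the interaction, singled out 4 of the 10 genes, against 45.2% of all genes tested. The log2 fold change with quizartinib in hBMSC-CM minus that in RPMI was -0.51 for IL3RA, -0.49 for CSF2RA, -0.43 for JAK2 and -0.34 for JAK1.

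The same test singled out other genes named. Many of them were named for the size of this very difference within their list, so their number says nothing about the lists, and the values are given as a description. In the JAK and STAT list the differences were 0.28 for JAK3, 0.14 for STAT6 and -0.44 for STAT2. In the receptor list they were 0.83 for IL15RA, 0.62 for IL4R and for IL7R, -0.50 for LEPR, -0.47 for IL10RA and -0.40 for IL13RA1. Of the negative regulators, PTPN6 had 1.59, CISH 1.58, SOCS3 1.50, PIAS3 -0.51, CBLB -0.48 and CBL -0.40. Of the adaptors and kinases, VAV1 had 0.34, SH2B1 0.30, LYN 0.23, SOS1 -0.54, SOS2 -0.35 and FYN -0.35. Of the target genes and ligands, MYC had 2.68, OSM 2.27, PIM2 2.04, PIM1 1.84, CNTF 1.14 and IL23A 0.58. FLT3 itself had a difference of -0.65.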

How the results depend on the processing

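Over the alternatives run, 1269 values of the 10 genes kept their direction and their side of the threshold, 23 lost a call, 12 gained one and 6 changed sign. Without the filter on low counts the sign changed for IL6R with quizartinib in RPMI (-0.03) and in hBMSC-CM (-0.02), for STAT5A between media with quizartinib (0.02), and for the interactions of IL6R (0.02) and CSF2RB (0.01). IL6R with quizartinib in hBMSC-CM also changed sign without CM_quizartinib replicate 1 (-0.01, with a range of -0.01 to 0.03 over the libraries left out), and none of these values was called. For the other named genes 44 values lost a call and 2521 did not, and none changed sign. Only called values of these genes were followed, many of them the largest of their list. Their stability was thus largely set by that choice and cannot be compared with that of the 10 genes. At an adjusted p under 0.01, 2692 genes differed between media with vehicle, against 4174 at 0.05. With the replicate number as a block, 10224 genes were called with quizartinib in RPMI (10307 without it) and 4 of the 10 genes in the interaction, as without it, and 0 of 12 libraries correlated best with their own number. The upward share of calls rose from 49.8% to 62.8% (library size alone) and 60.0% (upper-quartile factors) with quizartinib in hBMSC-CM. It rose from 49.2% to 62.1% (library size alone) between treated cells in hBMSC-CM and untreated cells in RPMI, and from 57.6% to 70.6% in the interaction without the filter. Whether protein or phosphorylation moved with these transcripts was not measured here.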
